A study of Schmidtea mediterranea with 18 samples.

Results

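The 5 growth regulators described here are an insulin-like growth factor (*IGF*), *progranulin* (*PGRN*), a protein tyrosine phosphatase (*PTPase*), a muscarinic acetylcholine receptor (*mAChR*) and *caprin 1* (*CAPR1*) of the planarian *Schmidtea mediterranea*. They were found by assembly number in the list of cell cycle genes that the study drew up for *hippo (RNAi)* animals, and the names rest on the homology given there. Every transcript of the dd_Smed_v6 assembly with one of these 5 numbers was taken, which gave 6 of the 41745 transcripts in the table. *PTPase* has 2 of them and each other gene has 1, and all 6 passed the filter on low values. The study chose that list on these same samples, so the direction of its genes is not independent evidence.

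The study inhibited *hippo* in intact, starved animals of the asexual clonal line BCN-10 and followed the transcriptome over time. Double-stranded RNA (dsRNA) for *hippo* was injected into one set of animals and dsRNA for *gfp*, a gene that planarians lack, into the controls. Whole animals were collected at 1, 3 and 4 weeks, and each of the 6 groups holds 3 libraries made from pools of 5 animals. All groups share the clonal line, and all were injected and starved. They differ in the dsRNA and the week. Starvation was kept up throughout, so a later week also means longer starvation. The injections were repeated over 3 weeks, so their number can differ between weeks too.

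Hippo signaling runs through a series of kinases that, in flies and mammals, restrain organ growth and keep the co-activator Yorkie (YAP in mammals) out of the nucleus. In planarians, all new cells come from dividing stem cells called neoblasts, so division and differentiation go on throughout adult life. Secreted factors such as progranulin and insulin-like growth factors act on cells from outside in mammals, where they act through cell surface receptors and promote growth and survival. Muscarinic receptors are G protein-coupled receptors for acetylcholine, tyrosine phosphatases remove phosphate groups that kinases have placed on tyrosines, and caprin 1 is a cytoplasmic RNA-binding protein linked in vertebrate cells to progression through the cell cycle.

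Values are TPM, a relative abundance corrected for transcript length and summing to one fixed total per library. TPM keep no depth, so the reads behind a value are not known and no counting error can be given. Across all transcripts, Spearman's rho between libraries of a group ranged from 0.940 to 0.963. The 6 transcripts together made up between 0.0717% and 0.139% of the TPM of a library. The level of *hippo* was not analysed here, because no source used here pairs that name with a transcript, so the labels were not checked against it. The hippo libraries 266O and 267O at 3 weeks and 268O and 269O at 4 weeks carry numbers apart from those of their controls, and results that turn on them are given with and without them. Without them 1 *hippo (RNAi)* library remained at each of these weeks, and the fit assumed that it varied like the other groups.

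Against controls of the same week, *PGRN*, *IGF* and *PTPase* were higher in *hippo (RNAi)* animals at 3 and 4 weeks. *CAPR1* was lower by a small amount at both, and *mAChR* was lower at 4 weeks. At 3 weeks *PGRN* stood at 2.42 times, *IGF* at 2.14 times and the summed transcripts of *PTPase* at 2.26 times the mean of controls, and at 4 weeks the ratios were 2.48, 2.29 and 2.49. *CAPR1* fell by 6.86% at 3 weeks and fell by 8.47% at 4 weeks. *mAChR* differed by -5.42% at 3 weeks, which was not called, and fell by 22.1% at 4 weeks. Expression was measured in whole animals, in which fewer cells of a type and less RNA per cell cannot be told apart.

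Each transcript was compared on the log2(TPM + 1) scale with limma across the 28735 transcripts that averaged 1 TPM or more, and called at a Benjamini-Hochberg adjusted p below 0.05. With *PTPase* counted by its transcript dd_Smed_v6_9638_0_2, 2 of the 5 genes were called higher and 0 lower at 1 week, when 0.654% of all tested transcripts were called higher and 0.195% lower. At 3 weeks 3 genes were called higher and 1 lower, against 10.2% and 5.27% of all transcripts. At 4 weeks 3 were called higher and 2 lower, against 13.0% and 8.54%. Without libraries 266O to 269O fewer genes were called at each week. The share of all transcripts called in that fit was not analysed here. With *PTPase* counted by its other transcript or by the sum, 3 genes were called at 1 week. The count of 2 at 1 week, by dd_Smed_v6_9638_0_2, became lower in 16 of the 18 fits that left out 1 library. Libraries of 3 and 4 weeks, 266O to 269O among them, do not enter the differences at 1 week. Leaving them out keeps these differences and changes the spread shared by all groups, and so the adjusted p. The median log2 fold change of the 5 genes was 0.26, 1.06 and 1.16 at the 3 weeks, beside 0.02, 0.00 and 0.00 over all tested transcripts. The 15 other genes of the study's list had medians of 0.01, 0.07 and -0.04, with 2, 6 and 7 called higher and 1, 4 and 2 called lower.

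**Figure D1:**
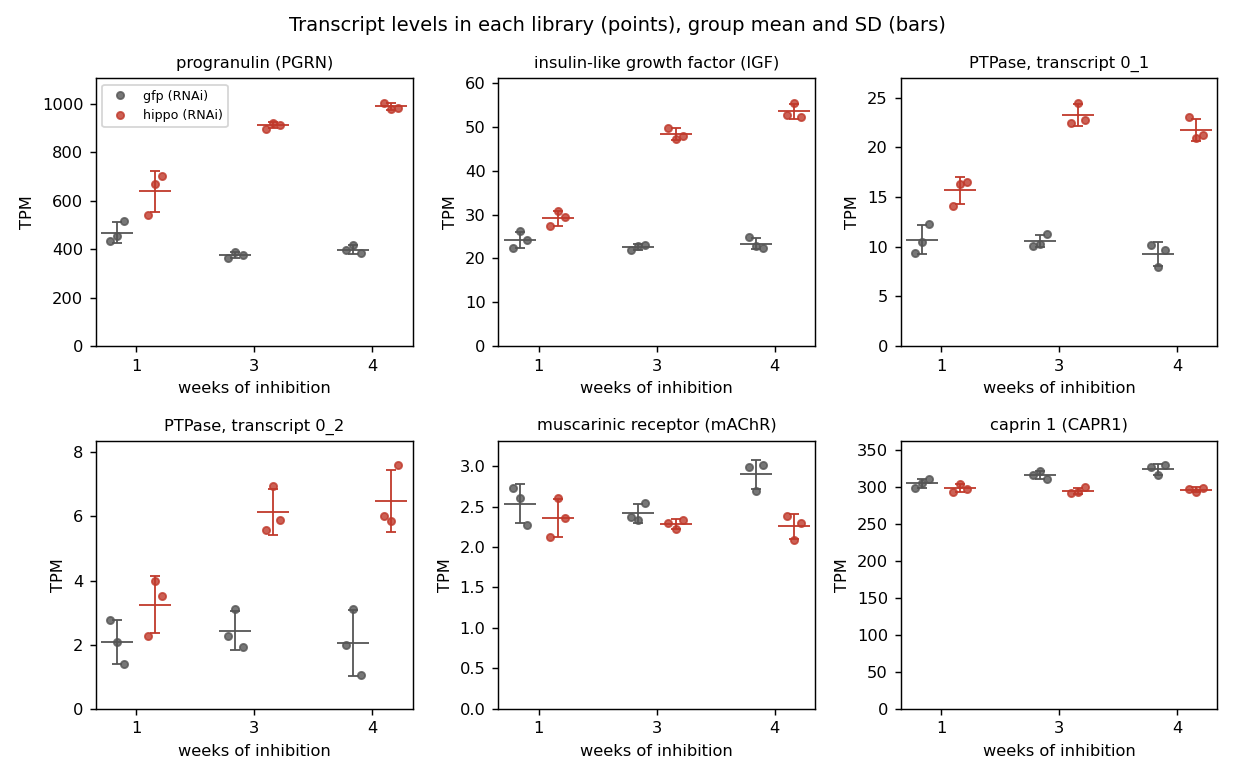
TPM of each of the 6 transcripts in every library by week of inhibition. Points are libraries, with the mean and SD of 3 libraries per group. At 3 and 4 weeks all *hippo (RNAi)* libraries of *PGRN* lie at 898 TPM or more and all controls at 417 or less, while the ranges of *mAChR* overlap until 4 weeks.

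*PGRN* (dd_Smed_v6_67_0_1), which in mammals codes for the precursor of the granulin peptides, was the most abundant of the 5, with a mean of 630.2 TPM over the 18 libraries and rank 245 of 28735. In controls it measured 433, 454 and 516 TPM at 1 week, 364, 389 and 376 TPM at 3 weeks, and 395, 417 and 384 TPM at 4 weeks. In *hippo (RNAi)* animals it measured 541, 670.0 and 704 TPM at 1 week, 898, 923 and 913 TPM at 3 weeks, and 1004, 979 and 984 TPM at 4 weeks. No *hippo (RNAi)* library overlapped with its controls at any week, a pattern found in 3.59% of all tested transcripts in this direction. The 3 libraries of 3 weeks lay above all 3 of 1 week in the *hippo (RNAi)* animals, and those of 4 weeks above those of 3 weeks. How many of all tested transcripts share this order by week was not analysed here.

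The *PGRN* mean was 638 ± 85.8 TPM in *hippo (RNAi)* animals against 468 ± 42.98 TPM in controls at 1 week (SD, n = 3 each), with a log2 fold change of 0.44 ± 0.08 (SE; limma adjusted p = 0.0158). At 3 weeks 376 ± 12.6 TPM stood against 911 ± 12.4 TPM, a log2 fold change of 1.27 (limma adjusted p = 3.74e-08). At 4 weeks 399 ± 17.0 TPM stood against 989 ± 13.5 TPM, a log2 fold change of 1.31 (limma adjusted p = 1.76e-08). The SD of *PGRN* was wider at 1 week than later, in both treatments. The call at 1 week was lost in limma without control 249O or 250O or without 253O or 254O of the treated group (adjusted p between 0.0546 and 0.0914), without libraries 266O to 269O (0.0688), and in a fit of the libraries of 1 week alone (0.362). Without 266O to 269O the log2 fold changes at 3 and 4 weeks were 1.28 and 1.29, both still called.

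*IGF* (dd_Smed_v6_3513_0_1), in mammals a secreted ligand of the insulin receptor family, was less abundant than *PGRN*, with a mean of 33.6 TPM and rank 3947. Controls measured 22.4, 26.2 and 24.2 TPM at 1 week, 21.9, 22.9 and 23.0 TPM at 3 weeks, and 24.9, 22.9 and 22.4 TPM at 4 weeks. *hippo (RNAi)* animals measured 27.3, 30.7 and 29.5 TPM at 1 week, 49.9, 47.2 and 47.9 TPM at 3 weeks, and 52.7, 55.5 and 52.4 TPM at 4 weeks. Controls of different weeks overlapped with each other, and all *hippo (RNAi)* libraries lay above them. Of all tested transcripts, 3.59% lay above the controls of the same week at every week. The *hippo (RNAi)* libraries were ordered by week without overlap, and the share of all transcripts ordered in this way was not analysed here.

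The means of *IGF* were 24.2 ± 1.90 and 29.2 ± 1.72 TPM at 1 week (SD, n = 3 each), a difference of 0.26 ± 0.06 on the log2 scale (SE; limma adjusted p = 0.0441). This call lay close to the threshold and was lost in 15 of the 18 fits that left out 1 library (limma adjusted p between 0.0505 and 0.187). Of the libraries whose omission lost the call, only 249O, 251O, 253O and 254O are of 1 week. Omitting a library of 3 or 4 weeks left the difference at 0.26 and changed the spread shared by all groups. The call itself was therefore less stable than the difference. It held in the fits without 250O, 261O or 252O, and it was lost without 266O to 269O (0.121) and in a fit of 1 week alone (0.395). At 3 weeks the means were 22.6 ± 0.587 and 48.3 ± 1.39 TPM and the log2 fold change was 1.06 (limma adjusted p = 1.25e-08). At 4 weeks they were 23.4 ± 1.32 and 53.6 ± 1.72 TPM, with a log2 fold change of 1.16 (limma adjusted p = 3.16e-09). Without libraries 266O to 269O the log2 fold changes of *IGF* were 1.05 at 3 weeks and 1.21 at 4 weeks, and both remained called.

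The assembly lists 2 transcripts for *PTPase*, an enzyme that the study's list files under control of entry into mitosis, and kallisto can divide reads between them. The more abundant one, dd_Smed_v6_9638_0_1, measured 9.37, 10.4 and 12.3 TPM at 1 week, 10.1, 10.3 and 11.3 TPM at 3 weeks, and 10.2, 7.92 and 9.71 TPM at 4 weeks in the animals given *gfp* dsRNA. In *hippo (RNAi)* animals it measured 14.1, 16.3 and 16.5 TPM, then 22.4, 24.5 and 22.8 TPM, then 23.1, 21.0 and 21.2 TPM. All *hippo (RNAi)* libraries lay above all controls of the 3 weeks, beside 3.59% of all transcripts that lay above the controls of the same week at every week. The log2 fold change was 0.52, 1.07 and 1.15 at the 3 weeks, with a limma adjusted p of 0.0203, 1.23e-06 and 3.82e-07. The call at 1 week was lost without 249O, 250O, 253O or 254O (limma adjusted p between 0.0615 and 0.111) and without 266O to 269O (0.0697).

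The other transcript, dd_Smed_v6_9638_0_2, was lower and more variable, with a coefficient of variation between 11.8% and 50.5% within groups. Controls measured 2.78, 2.07 and 1.40 TPM at 1 week, 2.27, 3.11 and 1.94 TPM at 3 weeks, and 1.995, 3.12 and 1.05 TPM at 4 weeks. *hippo (RNAi)* animals measured 2.26, 3.99 and 3.51 TPM, then 5.59, 6.96 and 5.88 TPM, then 6.01, 5.85 and 7.59 TPM. The groups overlapped at 1 week (log2 fold change 0.46, limma adjusted p = 0.448) and were apart at 3 weeks (1.06, 0.00526) and 4 weeks (1.34, 0.000622), as were 17.7% and 20.2% of all transcripts in this direction. The values without libraries 266O to 269O were 1.02 and 1.22 at 3 and 4 weeks, and neither was called by limma (adjusted p = 0.156 and 0.0703).

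Adding both transcripts within each library gave control means of 12.8 ± 0.784, 13.0 ± 0.563 and 11.3 ± 0.757 TPM at 1, 3 and 4 weeks, against 18.9 ± 2.19, 29.4 ± 1.84 and 28.2 ± 1.24 TPM after *hippo* inhibition (SD, n = 3 each). Since TPM are divided by transcript length, the sum can still depend on how reads were divided if the lengths differ, and the lengths were not analysed here. No *hippo (RNAi)* library overlapped with the controls of its week, as in 3.59% of all tested transcripts, and the log2 fold changes were 0.53, 1.12 and 1.25, all called (limma adjusted p = 0.00311, 3.79e-08 and 8.00e-09). These 3 calls held in each fit without 1 library. Without 266O to 269O the log2 fold changes of the sum were 0.53, 1.08 and 1.18. A fit of 1 week alone, in which *PGRN* and *IGF* lost their calls at 1 week, was not run for the sum. The sum at 3 weeks overlapped with that at 4 weeks in the *hippo (RNAi)* animals. The share of dd_Smed_v6_9638_0_2 in the sum ranged from 9.73% to 28.3% in controls and from 13.8% to 26.3% in *hippo (RNAi)* animals, so the ranges overlapped.

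*mAChR* (dd_Smed_v6_25466_0_1) was the least abundant gene, at a mean of 2.46 TPM and rank 20656. Controls measured 2.74, 2.60 and 2.27 TPM at 1 week, 2.37, 2.33 and 2.55 TPM at 3 weeks, and 2.99, 2.70 and 3.01 TPM at 4 weeks. *hippo (RNAi)* animals measured 2.13, 2.60 and 2.36 TPM, then 2.30, 2.22 and 2.34 TPM, then 2.39, 2.09 and 2.30 TPM. The groups overlapped at 1 and 3 weeks and were apart at 4 weeks, as were 16.5% of all transcripts in this direction, when the control mean was at its highest. The log2 fold change was -0.07 at 1 week and -0.06 at 3 weeks, neither called (limma adjusted p = 0.795 and 0.758), with 95% intervals from -0.25 to 0.11 and from -0.23 to 0.12.

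At 4 weeks *mAChR* averaged 2.26 ± 0.156 TPM in *hippo (RNAi)* animals, beside 2.90 ± 0.176 TPM in controls (SD, n = 3 each). The difference of -0.26 on the log2 scale was called (limma adjusted p = 0.0381), within a 95% interval from -0.44 to -0.08. It was lost without control 261O or 263O or without 264O, 268O or 269O of the treated group (limma adjusted p between 0.0517 and 0.134), with no filter on low values (0.0627) and in a fit of 4 weeks alone (0.134). It was -0.34 and not called (0.166) without libraries 266O to 269O.

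*CAPR1* (dd_Smed_v6_936_0_1) was abundant, at 306 TPM and rank 452, and had the smallest spread of the 5, with a coefficient of variation between 0.974% and 2.24%. Controls measured 298, 306 and 311 TPM at 1 week, 317, 322 and 311 TPM at 3 weeks, and 327, 316 and 329 TPM at 4 weeks. *hippo (RNAi)* animals measured 293, 304 and 298 TPM, then 292, 293 and 299 TPM, then 298, 293 and 298 TPM. The *hippo (RNAi)* libraries lay within a narrow band at every week and below all controls of the same week at 3 and 4 weeks, as did 14.0% and 16.5% of all transcripts.

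The difference in *CAPR1* was -0.03 on the log2 scale at 1 week (limma adjusted p = 0.662), -0.10 at 3 weeks (0.00724) and -0.13 at 4 weeks (0.00103). With a required change of 1.5-fold neither of the later differences was called. The call at 3 weeks was lost without libraries 266O to 269O (-0.08, limma adjusted p = 0.277) and with no variance trend (0.059), and at 4 weeks the value without these libraries was -0.14 and still called (0.035).

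**Figure D2:**
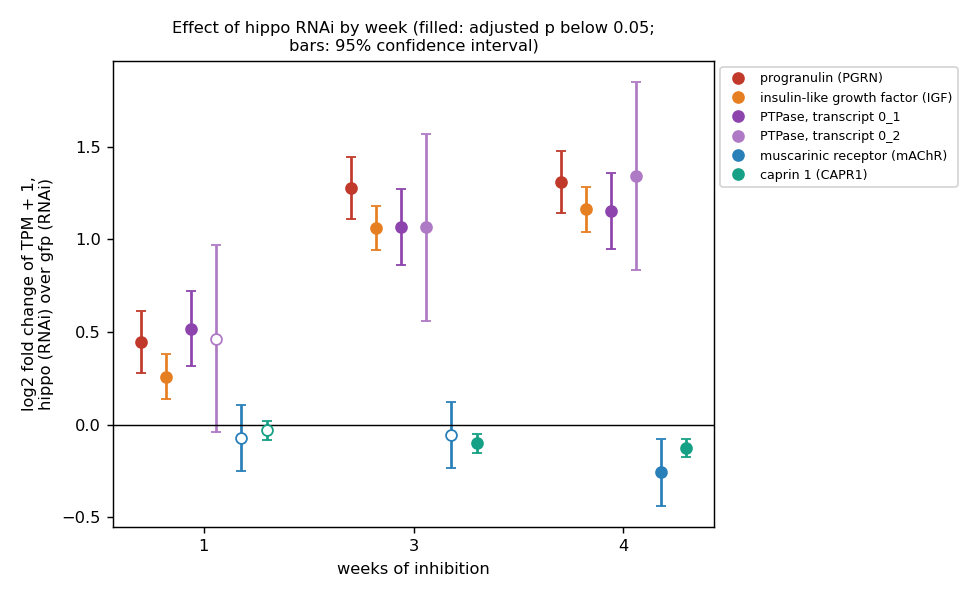
Log2 fold change of *hippo (RNAi)* against controls, on the log2(TPM + 1) scale, at each week with 95% intervals. Filled points are called at an adjusted p below 0.05 in limma. *PGRN* reaches 1.31 and *IGF* 1.16 at 4 weeks, while *mAChR* and *CAPR1* stay between -0.26 and -0.03.

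The test across weeks used an exact permutation of the treatment labels within each week, with 8000 arrangements, since 3 libraries against 3 in a single week cannot reach a two-sided p below 0.1. For *PGRN*, *IGF*, dd_Smed_v6_9638_0_1 and the *PTPase* sum the p was 0.00025, the smallest possible. It was 0.0005 for dd_Smed_v6_9638_0_2 and for *CAPR1*, and 0.00825 for *mAChR*. These 7 permutation p-values are not adjusted. In limma the average over weeks was 1.01 for *PGRN*, 0.83 for *IGF*, 0.96 for the *PTPase* sum and -0.09 for *CAPR1*, all called, and -0.13 for *mAChR* (adjusted p = 0.065), not called. With *PTPase* counted by dd_Smed_v6_9638_0_2, also at 0.96, 4 of the 5 genes were called on average, beside 25.5% of all transcripts. In the fit of summed transcripts, from which the *PTPase* sum comes, *mAChR* was called too (limma adjusted p = 0.0428). The *mAChR* average was called without 251O or 253O (adjusted p between 0.0381 and 0.0451).

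The effect on *PGRN*, *IGF* and the *PTPase* sum was larger at 3 weeks than at 1 week. The change of effect, tested as an interaction in limma, was 0.83 ± 0.11 for *PGRN* (SE; adjusted p = 0.000462), 0.80 ± 0.08 for *IGF* (6.57e-05) and 0.59 ± 0.11 for the *PTPase* sum (0.00246). For dd_Smed_v6_9638_0_2 it was 0.60 (0.407), so 2 of the 5 genes were called, beside 5.11% of all transcripts. Without libraries 266O to 269O the change remained called for *PGRN* and *IGF* and was 0.55 for the *PTPase* sum, no longer called (0.0508). Between 3 and 4 weeks the change was 0.04 for *PGRN* and 0.10 for *IGF* in limma (adjusted p = 0.983 and 0.876), and 0 of the 5 genes were called, as against 0.0104% of all transcripts.

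The same libraries were compared over time within each treatment. Week, length of starvation and number of injections cannot be told apart there. In *hippo (RNAi)* animals *IGF* rose by 0.71 on the log2 scale between 1 and 3 weeks (limma adjusted p = 3.20e-06), and in controls it differed by -0.09 (0.596). *PGRN* in *hippo (RNAi)* animals rose by 0.52 (0.00054), and in controls it differed by -0.31 (0.137), which was not called. Without libraries 266O to 269O the *PGRN* rise was 0.52 and no longer called (limma adjusted p = 0.0607). The change of 0.83 in the *PGRN* effect is made up of both differences. Library 252O is a *hippo (RNAi)* library of 1 week and does not enter the difference in controls. Without it the difference in the *PGRN* controls stayed at -0.31 and was called (limma adjusted p = 0.029), as the shared spread changed. Of the 5 genes, 0 were called in controls and 2 in *hippo (RNAi)* animals between 1 and 3 weeks, beside 0.143% and 8.07% of all transcripts.

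Between 1 and 4 weeks *CAPR1* differed by -0.01 and *mAChR* by -0.04 in *hippo (RNAi)* animals (limma adjusted p = 0.862 and 0.808), and by 0.09 and 0.14 in controls (0.106 and 0.523). None of these was called. The control means of *CAPR1* were 305, 317 and 324 TPM at 1, 3 and 4 weeks, while those after *hippo* inhibition were 298, 295 and 296 TPM. In controls 0 of the 5 genes were called between 1 and 4 weeks, beside 1.01% of all transcripts in either direction. In *hippo (RNAi)* animals 3 were called, all higher, beside 12.8% of all transcripts in either direction. The call of dd_Smed_v6_9638_0_2 there (0.83, limma adjusted p = 0.031) was lost without 252O, 254O, 264O, 268O or 269O (adjusted p between 0.0537 and 0.129), without libraries 266O to 269O together (0.71, 0.422) and with a pseudocount of 0.1 TPM (0.0628).

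**Figure D3:**
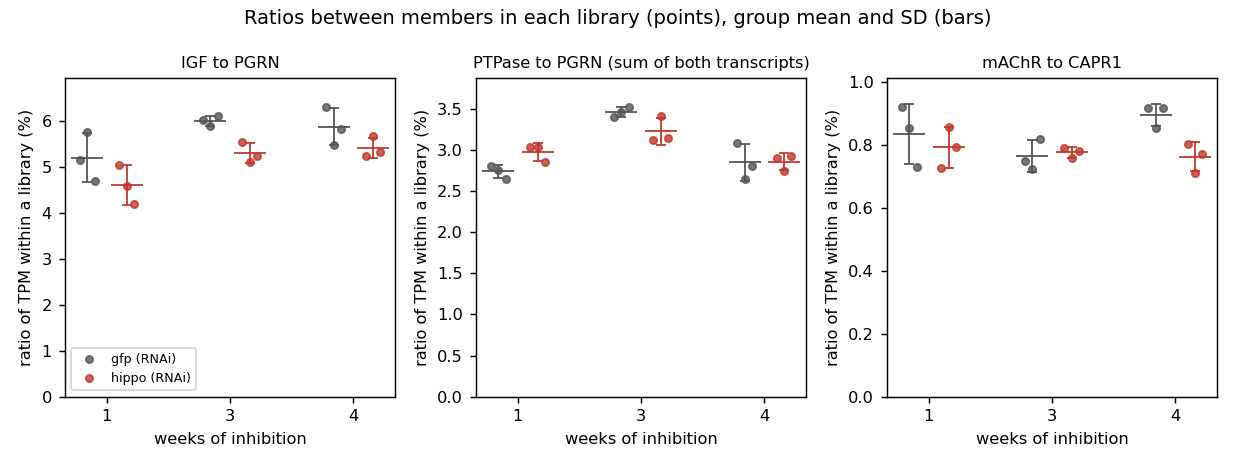
Ratio of *IGF* to *PGRN*, of the *PTPase* sum to *PGRN* and of *mAChR* to *CAPR1* in each library, in percent, by week. Points are libraries with the mean and SD of 3. The ratio of *IGF* to *PGRN* is lower in *hippo (RNAi)* animals, without overlap at 3 weeks.

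A ratio of 2 genes within one library does not depend on how that library was scaled. The *IGF* level was 5.21% ± 0.535, 6.01% ± 0.110 and 5.88% ± 0.406 of the *PGRN* level in controls at 1, 3 and 4 weeks, and 4.61% ± 0.428, 5.31% ± 0.225 and 5.42% ± 0.226 in *hippo (RNAi)* animals (SD, n = 3 each). At 3 weeks the libraries did not overlap, and at 1 and 4 weeks they did. The ratio was 0.897 times that of controls over the 3 weeks, a log2 difference of -0.16 (exact permutation p = 0.0035, adjusted over 3 ratios 0.0105). Against controls of the same week and with all 18 libraries, *IGF* was therefore higher by a smaller factor than *PGRN*. Without libraries 266O to 269O the difference was -0.14 and not past the threshold (exact permutation p = 0.0375, adjusted 0.113).

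The ratio of the *PTPase* sum to *PGRN* differed by 0.01 over the weeks (exact permutation p = 0.837), with values of 0.12, -0.10 and 0.01 at 1, 3 and 4 weeks. The ratio of *mAChR* to *CAPR1* differed by -0.09 (exact permutation p = 0.0963, adjusted 0.144), with values of -0.07, 0.02 and -0.23 at 1, 3 and 4 weeks. Without control 251O it was -0.12 and past the threshold (exact permutation, adjusted p = 0.0356). A difference in these ratios was not detected with all 18 libraries, and this does not show that the genes of each pair move by the same amount.

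**Figure D4:**
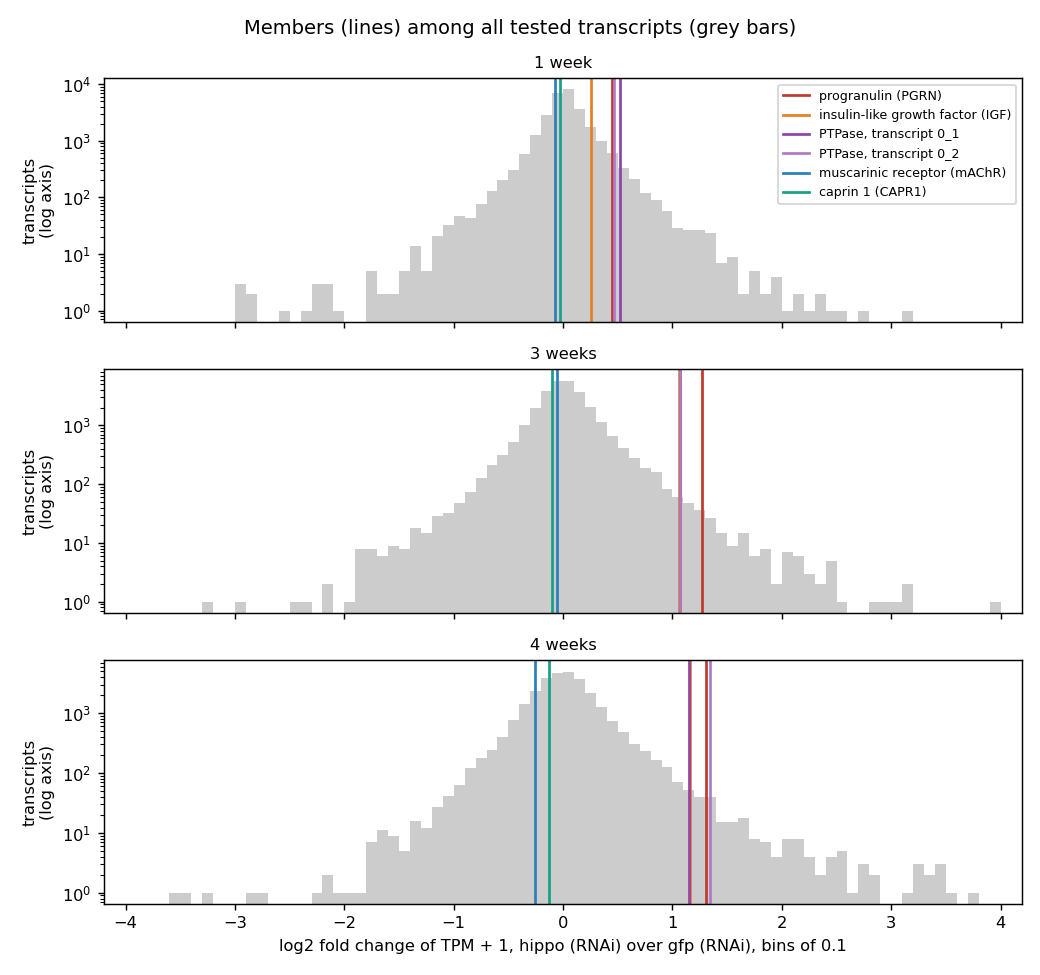
Number of tested transcripts (log axis) by log2 fold change at 1, 3 and 4 weeks, with the 6 transcripts marked by lines. At 3 weeks *PGRN*, both *PTPase* transcripts and *IGF* lie in the upper tail and *CAPR1* and *mAChR* near 0.

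Among all 28735 tested transcripts ordered by fold change at 3 weeks from the highest, *PGRN* stood at place 122, dd_Smed_v6_9638_0_1 at 214, dd_Smed_v6_9638_0_2 at 220 and *IGF* at 221. At 4 weeks dd_Smed_v6_9638_0_2 stood at 136, *PGRN* at 151, *IGF* at 216 and dd_Smed_v6_9638_0_1 at 221. *CAPR1* and *mAChR* stood at places 20480 and 17971 at 3 weeks.

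The transcripts with the most similar pattern were found by the root mean square difference of the 6 centered group means of log2(TPM + 1). For *PGRN* the nearest was dd_Smed_v6_3112_1_1 at 0.0309, against a median of 0.559 over all tested transcripts. For *IGF* it was dd_Smed_v6_175_0_1 at 0.0353, against 0.505. Within the study's list, *DYN1* (dynamin 1-like, dd_Smed_v6_1074_0_1) was nearest to *PGRN*, at 0.0547 and place 5, and *IGF* stood at place 64 with 0.131. The *DYN1* means were 57.9, 52.2 and 51.4 TPM in controls and 83.8, 126 and 132 TPM in *hippo (RNAi)* animals at 1, 3 and 4 weeks. For *mAChR* and *CAPR1* the nearest were dd_Smed_v6_34401_0_1 at 0.0148 and dd_Smed_v6_9671_0_1 at 0.00703, where the median distance of all transcripts was itself small (0.137 and 0.117).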

How the data were processed

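Whole-animal RNA from pools of *S. mediterranea* was read as stranded, paired-end poly(A) libraries. The authors estimated abundances with kallisto 0.43.0 on the dd_Smed_v6 assembly and deposited TPM, 1 value per transcript and library. Their differential expression by sleuth and DESeq2 needs counts and was not used. TPM scale every library to 1 total, so abundant transcripts that rise lower the others. The sources used here give neither read totals nor trimming.

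Groups came from the labels. The deposited TPM were analysed as log2(TPM + 1), with a mean of at least 1 TPM, in limma 3.58.1 (R 4.3.3) with a variance trend and 6 group means, adjusted over 28735 transcripts at an FDR of 0.05. For the *PTPase* sum, the TPM of all transcripts with one assembly number were added, and the same fit was adjusted over 22429 assembly numbers. Fold changes on this scale understate those of low transcripts. Ratios and weekly averages were tested by exact permutation. The fit was tested on simulated data. The genes named are the transcripts of the 5 assembly numbers, their nearest transcripts by pattern and 15 listed genes for comparison. The members and lists were chosen with earlier results of these data known. The labels say pools but not whether these came from separate experiments, so p-values measure the spread between these libraries. Alternatives were other pseudocounts, filters, scalings, thresholds and array weights, fits by week, and omission of libraries. The use of dd_Smed_v6_9638_0_1, and the omissions for it and for the *PTPase* sum, were chosen after seeing the data. Genome positions and sequences were not analysed here.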

Additional observations from a re-analysis of the deposited data

Results flagged for a closer look

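The *hippo (RNAi)* effect differed between 3 weeks and 1 week, as an interaction in limma, for *PGRN* and *IGF*, and for *PTPase* by its more abundant transcript, a choice made after seeing the data, or by its sum. With *PTPase* counted by dd_Smed_v6_9638_0_2, 2 of the 5 genes were called, beside 5.11% of all transcripts. The difference was 0.83 for *PGRN*, 0.80 for *IGF*, 0.55 for the *PTPase* transcript dd_Smed_v6_9638_0_1 and 0.59 for the sum of both *PTPase* transcripts, on the log2 scale. Without libraries 266O to 269O it was 0.83 for *PGRN* (limma adjusted p = 0.0258) and 0.79 for *IGF* (0.0072). It was 0.55 for the *PTPase* sum (0.0508) and 0.52 for dd_Smed_v6_9638_0_1 (0.218), neither called. The *PTPase* transcript dd_Smed_v6_9638_0_1 also lost this call without 251O, 252O, 257O, 258O, 260O or 267O (adjusted p between 0.0527 and 0.0726).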

How the results depend on the processing

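No paired analysis was possible because the labels carry no replicate numbers. The 2 genes called at 1 week became 1 with no filter, with array weights or with no variance trend, and 0 in a fit of that week alone, without libraries 266O to 269O, at an FDR of 0.01 or with a required change of 1.5-fold. Without those 4 libraries fewer genes were also called at 3 weeks, at 4 weeks and for the change in *hippo (RNAi)* animals from 1 to 3 weeks. With 1.5-fold required 3 genes were called at 4 weeks and 1 for that change, and the averaged *CAPR1* value of -0.087 was not called. The share of all transcripts called under these alternatives was not analysed here. The averaged *mAChR* value became called with median-ratio scaling (-0.14), and with array weights, no variance trend or summed transcripts (-0.13 each). Without libraries 266O to 269O the ratio of *IGF* to *PGRN* (-0.14) was no longer called, and that of *PTPase* to *PGRN* turned to -0.024. A further 3 values near 0 changed sign, which were *PTPase* in controls from 1 to 3 weeks by its more abundant transcript (-0.0090, an alternative chosen after seeing the data), *CAPR1* in *hippo (RNAi)* animals from 1 to 3 weeks without those libraries (0.0042), and from 1 to 4 weeks with median-ratio scaling (0.0011). Leaving out each library gave 0 to 2 genes called at 1 week, with fewer than 2 in 16 of the 18 fits. These fits include omissions of libraries of 3 and 4 weeks, which do not enter those differences. Leaving out each library gave 0 to 1 in controls from 1 to 3 weeks. The averaged *mAChR* value then ranged from -0.15 to -0.11, the ratio of *PTPase* to *PGRN* from -0.0092 to 0.028, and that of *mAChR* to *CAPR1* from -0.12 to -0.069. The same omissions gave ranges that crossed 0 for the change of the *mAChR* effect from 1 to 3 weeks (-0.034 to 0.072), for *PTPase* in controls to 3 weeks (-0.0018 to 0.33) and 4 weeks (-0.29 to 0.21), for *IGF* in controls to 4 weeks (-0.10 to 0.0072), and, in *hippo (RNAi)* animals, for *mAChR* to 3 weeks (-0.082 to 0.019) and 4 weeks (-0.095 to 0.0061) and *CAPR1* to 4 weeks (-0.022 to 0.0044). Of 2090 values under an alternative, 1956 kept their direction and call. Among these values, a count of called genes was taken as kept if it changed by at most 1.5-fold. Depth is unknown, so the counting error of low transcripts such as *mAChR* cannot be given.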
